A study of Mus musculus with 9 samples.

Results

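The enzymes that carry glucose to lactate were followed in peripheral blood of mouse embryos with 2, 1 or 0 copies of the Cbfb ΔC95 allele. The 10 genes listed were Hk1, Gpi1, Pfkl, Aldoa, Tpi1, Gapdh, Pgk1, Pgam1, Eno1 and Ldha, and every probe set that the array's annotation gives to 1 of them alone was taken. This gave 21 of the 45101 probe sets on the array, belonging to 8 of the 10 genes and of 18194 genes read in all. Gpi1 and Eno1 had no probe set of their own in the annotation used and were not analysed here.

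The groups were homozygous CbfbΔC95/ΔC95, heterozygous Cbfb+/ΔC95 and wild-type Cbfb+/+ embryos, with 3 arrays each. All came from matings of heterozygous parents on a mixed C57BL6/129SvEv background and were collected at E12.5, midway through gestation. The allele is a shortened form of CBFβ-SMMHC, a leukemia fusion of core binding factor β and a smooth muscle myosin heavy chain. Blood of 8 to 10 embryos of 1 genotype was pooled before RNA extraction. Whether the 3 arrays of a genotype hold RNA from different pools is not stated, so p-values measure the spread between arrays, which may be technical. In whole blood, fewer cells of a type and less RNA per cell cannot be told apart.

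Glycolysis splits glucose into pairs of 3-carbon sugars, spending ATP in its first steps and making ATP and NADH in its later ones, and lactate dehydrogenase returns the NADH to NAD+. Mature red cells have no mitochondria and live on this pathway. The red cells that circulate in the embryo at this stage come mostly from the yolk sac and still have nuclei.

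Several whole-array features moved with genotype, and their part in the results below was not tested. The embryonic globins, which mark the labelled tissue, averaged 14.35, 14.31 and 14.30 (Hba-x) and 14.43, 14.38 and 14.37 (Hbb-bh1) in homozygous, heterozygous and wild-type blood (log2 signal, n = 3 arrays each). The mean level over 11 red cell markers ranged from 12.06 to 12.12 in homozygous, 12.09 to 12.10 in heterozygous and 12.22 to 12.24 in wild-type arrays. Set against wild type, homozygous blood had 14 of 16 monocyte and macrophage markers called lower and 0 higher (limma adjusted p under 0.05). Over all 18194 genes the shares called were 14.9% lower and 10.7% higher, and these shares apply to the marker counts that follow. The mean of these 16 markers ranged from 4.62 to 4.67 in homozygous, 6.49 to 6.53 in heterozygous and 6.80 to 6.86 in wild-type arrays. All 8 megakaryocyte markers measured were lower, with means of 5.30 to 5.36 in homozygous, 7.10 to 7.16 in heterozygous and 6.84 to 6.87 in wild-type arrays. Of 8 liver and visceral endoderm markers, 7 were higher in homozygous blood, with means of 6.31 to 6.42 in homozygous, 5.56 to 5.64 in heterozygous and 5.76 to 5.79 in wild-type arrays. Of 8 mesenchyme markers, 1 was higher and 6 were lower in homozygous blood, with means of 6.19 to 6.25 in homozygous, 6.77 to 6.84 in heterozygous and 6.55 to 6.60 in wild-type arrays. The 24 probe sets for bacterial poly-A RNAs, spiked in before labelling in the maker's protocol, averaged 11.96 ± 0.02 in homozygous, 11.26 ± 0.000905 in heterozygous and 10.38 ± 0.02 in wild-type arrays (SD, n = 3). All changes below are therefore relative to the other transcripts on an array. When arrays were set to equal poly-A signal, the 6 enzymes that rise in both mutants below lay lower than in wild-type blood. Of 45050 probe sets, 45048 were then called lower in homozygous and 44944 in heterozygous blood.

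The promoters are shown first, for a member that changed most, one whose test did not pass, and one rich in the motif searched. Each is the RefSeq window of GRCm38.p6 from 250 bases before to 50 after a gene start. Capitals mark ACGTG or its complement CACGT, a form of the core that hypoxia-inducible factors and many other factors bind. Forms of that core without ACGTG were not searched.

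Tpi1, chr6:124814109-124814408, minus strand: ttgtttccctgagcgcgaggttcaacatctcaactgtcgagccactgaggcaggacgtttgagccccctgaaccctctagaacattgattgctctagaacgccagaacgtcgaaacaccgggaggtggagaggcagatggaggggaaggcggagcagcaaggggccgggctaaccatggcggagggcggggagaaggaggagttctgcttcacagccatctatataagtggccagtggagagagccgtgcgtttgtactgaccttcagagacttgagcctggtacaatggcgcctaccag
Gapdh, chr6:125165724-125166023, minus strand: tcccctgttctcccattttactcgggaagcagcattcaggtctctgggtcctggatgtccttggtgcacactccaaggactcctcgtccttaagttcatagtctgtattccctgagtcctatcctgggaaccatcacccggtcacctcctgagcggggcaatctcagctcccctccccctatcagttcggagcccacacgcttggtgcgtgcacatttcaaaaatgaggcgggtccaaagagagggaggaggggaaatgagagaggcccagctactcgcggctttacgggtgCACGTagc
Ldha, chr7:46845554-46845853, plus strand: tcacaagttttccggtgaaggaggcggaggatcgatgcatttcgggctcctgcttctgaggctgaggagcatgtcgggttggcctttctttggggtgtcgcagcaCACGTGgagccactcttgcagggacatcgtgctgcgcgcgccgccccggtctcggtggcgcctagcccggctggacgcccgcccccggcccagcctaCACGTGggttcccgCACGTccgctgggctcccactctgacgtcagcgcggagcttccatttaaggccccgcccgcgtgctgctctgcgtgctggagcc

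ACGTG, searched on both strands, was in 7 of 12 windows and in 6 of the 8 genes, and in 19.6% of the 32851 mouse windows in the table. Of these windows 2 overlap at Aldoa and hold the same match. Tpi1 and Pfkl had no ACGTG in theirs. CACGTG, which holds ACGTG on both strands, was in 1 member window, the Ldha window above, and in 7.15% of all. The other motifs were CACCC (9 of 12 windows, 57.5% of all), AGATAA (0 of 12, 11.2% of all) and TGTGGT (1 of 12, in Hk1, 16.8% of all). The windows were not matched for base composition, with a median GC content of 62.8% in the members' windows and 52.7% in all. A match describes these letters and not a bound site.

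Of the 8 enzymes, each read by its brightest probe set, 6 were higher in homozygous blood than in wild-type blood, 1 was lower and 1 did not pass the test. The same 6, Pfkl, Aldoa, Tpi1, Pgk1, Pgam1 and Ldha, were higher in heterozygous than in wild-type blood and higher in homozygous than in heterozygous blood. With arrays set to equal poly-A signal all 6 had values below 0 in each comparison (Tpi1 -0.0399, adjusted p = 0.463, between homozygous and heterozygous blood). Nearly all probe sets were called lower under that scaling. Changes were tested with limma over 45050 probe sets, with Benjamini-Hochberg adjustment and a threshold of 0.05. The share of all 18194 genes called higher was 10.7% for homozygous minus wild type, 4.79% for heterozygous minus wild type and 5.38% for homozygous minus heterozygous. In the first comparison 14.9% of genes were called lower. The median change of the 8 enzymes was 0.71, 0.41 and 0.35 on the log2 scale in those comparisons, and that of all genes was 0.05, 0.01 and 0.03. Both mutants were set against the same 3 wild-type arrays. Among the 21 probe sets, 16 were higher and 2 lower in homozygous blood than in wild-type blood (8.35% and 11.7% of all probe sets), and 15 were higher and 0 lower in heterozygous blood (3.42% and 5.15%). At an unadjusted p under 0.05 limma also gave 0 lower in heterozygous blood.

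**Figure D1:**
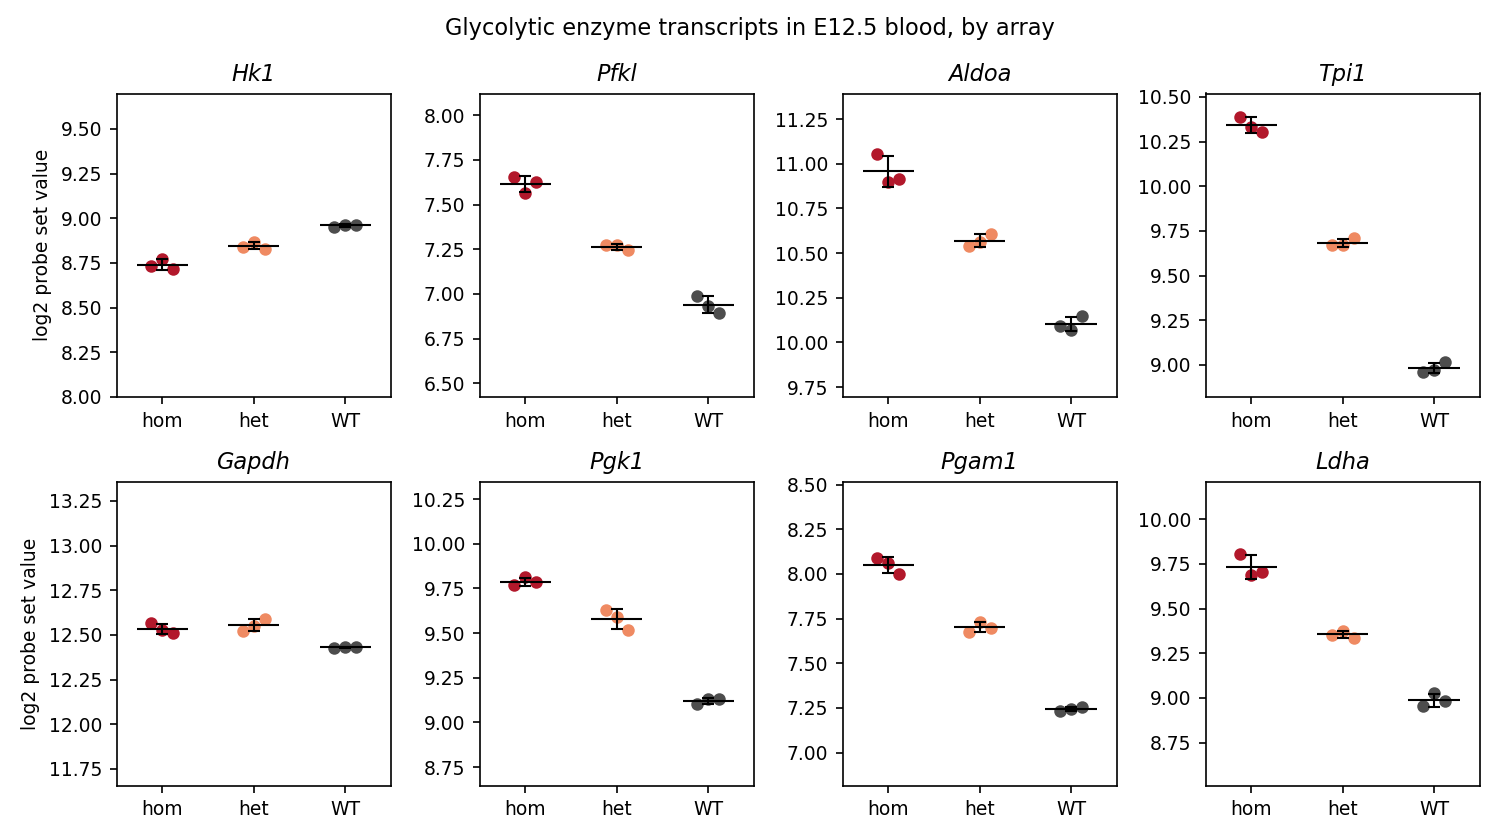
Signal (log2) of the brightest probe set of each of 8 glycolytic enzymes on each array, by genotype, with the mean and SD over 3 arrays. Tpi1 ranged from 10.31 to 10.39 on homozygous and 8.96 to 9.02 on wild-type arrays, whereas Gapdh ranged from 12.51 to 12.57 and stood at 12.43. Values are as deposited and not set to equal poly-A signal, under which the 6 higher enzymes lay lower, as did nearly all probe sets.

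The first ATP-spending step went the other way. Hk1 (chromosome 10, 62268855 to 62379920, GRCm38.p6) makes the hexokinase that traps glucose in the cell as its phosphate. Its signal was 8.73, 8.77 and 8.71 on the homozygous arrays, 8.84, 8.87 and 8.83 on the heterozygous arrays and 8.95, 8.96 and 8.97 on the wild-type arrays. The 3 genotypes did not overlap, with wild type on top. The homozygous change was -0.22 (SE 0.052, limma adjusted p = 0.00934) and the heterozygous change -0.11 (adjusted p = 0.264). A dimmer Hk1 probe set changed by -0.46 (adjusted p = 0.000785) and -0.14 (adjusted p = 0.373). After quantile normalization the homozygous change of the brighter set was -0.13 (adjusted p = 0.116).

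Pfkl (chromosome 10, 77986947 to 78009807) is the liver-type subunit of phosphofructokinase, which commits sugar to glycolysis and is also part of the red cell enzyme. It read 7.65, 7.57 and 7.63 in homozygous, 7.27, 7.27 and 7.24 in heterozygous and 6.99, 6.93 and 6.90 in wild-type blood, a rise at each copy of the allele without overlap. Homozygous blood was 1.60-fold above wild type (log2 0.68, SE 0.055, limma adjusted p = 2.68e-06) and heterozygous blood rose by 0.33 on the log2 scale (adjusted p = 0.00291). Its other probe sets were each 0.61 higher in homozygous blood. In heterozygous blood they differed by 0.37 (adjusted p = 0.0382) and 0.17 (adjusted p = 0.408).

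Aldolase A, from Aldoa (chromosome 7, 126795234 to 126800994), splits fructose bisphosphate into the triose phosphates. Its signal was 11.06, 10.90 and 10.91 on homozygous arrays, 10.54, 10.56 and 10.61 on heterozygous arrays and 10.09, 10.07 and 10.15 on wild-type arrays. The homozygous rise was 1.81-fold (log2 0.85, SE 0.061, limma adjusted p = 9.33e-07) and the heterozygous rise 0.47 (adjusted p = 0.000553). The other 4 probe sets rose by 0.49 to 0.91 in homozygous blood. All 5 Aldoa probe sets are of a design that can also bind related transcripts, so a setting without such probe sets left none.

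Tpi1 (chromosome 6, 124810586 to 124814158) makes triosephosphate isomerase, which interconverts the products of aldolase so that both can be used. It read 10.39, 10.33 and 10.31 in homozygous, 9.67, 9.67 and 9.71 in heterozygous and 8.96, 8.97 and 9.02 in wild-type blood. Of the 8 enzymes it rose most in both mutants. The change was 2.56-fold in homozygous blood (log2 1.36, SE 0.054, limma adjusted p = 1.29e-08) and 1.62-fold in heterozygous blood (log2 0.70, adjusted p = 1.87e-05). Its other 2 probe sets rose by 1.43 and 1.56 in homozygous and by 0.61 and 0.70 in heterozygous blood. The brightest set is of the design that can also bind related transcripts, and the other 2 are not. Over 21 settings other than the poly-A scaling the homozygous rise stayed between 1.31 and 1.45.

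The next enzyme, glyceraldehyde-3-phosphate dehydrogenase, makes the NADH of the pathway, and its small rise did not pass the test. Gapdh (chromosome 6, 125161852 to 125166467) is read here only by 3 probe sets that the maker places at the 3' end, middle and 5' end of its transcript as a control of RNA quality. The 3' set read 12.57, 12.53 and 12.51 on homozygous, 12.52, 12.55 and 12.59 on heterozygous and 12.43 on each of 3 wild-type arrays. Both mutants lay above wild type without overlap, and they overlapped each other. Arrays lay above wild type without overlap for 20.9% of all genes in homozygous and 14.3% in heterozygous blood. The differences of the 3' set were 0.10 (95% interval -0.01 to 0.22, limma adjusted p = 0.205) and 0.12 (adjusted p = 0.22). Those of the middle set were 0.13 (adjusted p = 0.106) and 0.15 (adjusted p = 0.104). The 5' set differed by 0.11 (adjusted p = 0.166) and 0.13 (adjusted p = 0.196). With a prior that follows signal intensity the adjusted p of the 3' set was 0.00216 for homozygous and 0.00108 for heterozygous blood. The 3' set exceeded the 5' set by 0.029 to 0.046 on homozygous, 0.013 to 0.072 on heterozygous and 0.045 to 0.049 on wild-type arrays.

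Phosphoglycerate kinase, from Pgk1 (chromosome X, 106187100 to 106203699), makes the first ATP that the pathway gains. Its signal was 9.77, 9.81 and 9.79 on homozygous, 9.63, 9.59 and 9.52 on heterozygous and 9.10, 9.13 and 9.13 on wild-type arrays. The homozygous rise was 1.59-fold (log2 0.67, SE 0.055, limma adjusted p = 2.7e-06), and heterozygous blood rose by 0.46 (adjusted p = 0.000298). The other 2 probe sets rose by 0.50 and 0.45 in homozygous and by 0.28 and 0.31 in heterozygous blood. Only the set that rose by 0.50 and 0.28 is not of the design that can also bind related transcripts. Homozygous exceeded heterozygous blood by 0.21 (adjusted p = 0.0263), a call that was lost when homozygous array 2 or 3 or heterozygous array 2 or 3 was left out (adjusted p up to 0.0877). The gene lies on the X chromosome, and Xist, which marks female cells, averaged 10.11 in homozygous, 9.86 in heterozygous and 8.89 in wild-type pools at its brightest probe set. Its 2 dimmer probe sets differed in the opposite direction, by -0.28 and -0.24, between homozygous and wild-type blood. The Y-linked Eif2s3y averaged 5.65 in homozygous, 4.73 in heterozygous and 6.12 in wild-type pools at its brightest probe set, with the heterozygous pools lowest. Its dimmer probe set averaged 2.89, 2.86 and 2.82 in the same order. The Y-linked Kdm5d averaged 4.92, 4.77 and 4.77 and Uty 3.37, 3.35 and 3.38, and neither passed the test in either mutant. The sex make-up of the pools is not stated, and its part in the Pgk1 values was not tested.

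Pgam1 (chromosome 19, 41911871 to 41918665) moves the phosphate of phosphoglycerate before enolase acts. It read 8.09, 8.06 and 8.00 in homozygous, 7.68, 7.73 and 7.70 in heterozygous and 7.23, 7.24 and 7.25 in wild-type blood, at its only probe set. Homozygous blood was 1.75-fold above wild type (log2 0.81, SE 0.054, limma adjusted p = 5.23e-07), and heterozygous blood rose by 0.46 (adjusted p = 0.000271). The arrays stepped up with each copy without overlap.

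Ldha (chromosome 7, 46842274 to 46855627) makes the main subunit of lactate dehydrogenase in glycolytic tissues. It read 9.81, 9.69 and 9.70 in homozygous, 9.35, 9.38 and 9.34 in heterozygous and 8.95, 9.03 and 8.98 in wild-type blood. The rise was 1.68-fold in homozygous blood (log2 0.74, SE 0.057, limma adjusted p = 1.56e-06) and 0.37 on the log2 scale in heterozygous blood (adjusted p = 0.00162).

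**Figure D2:**
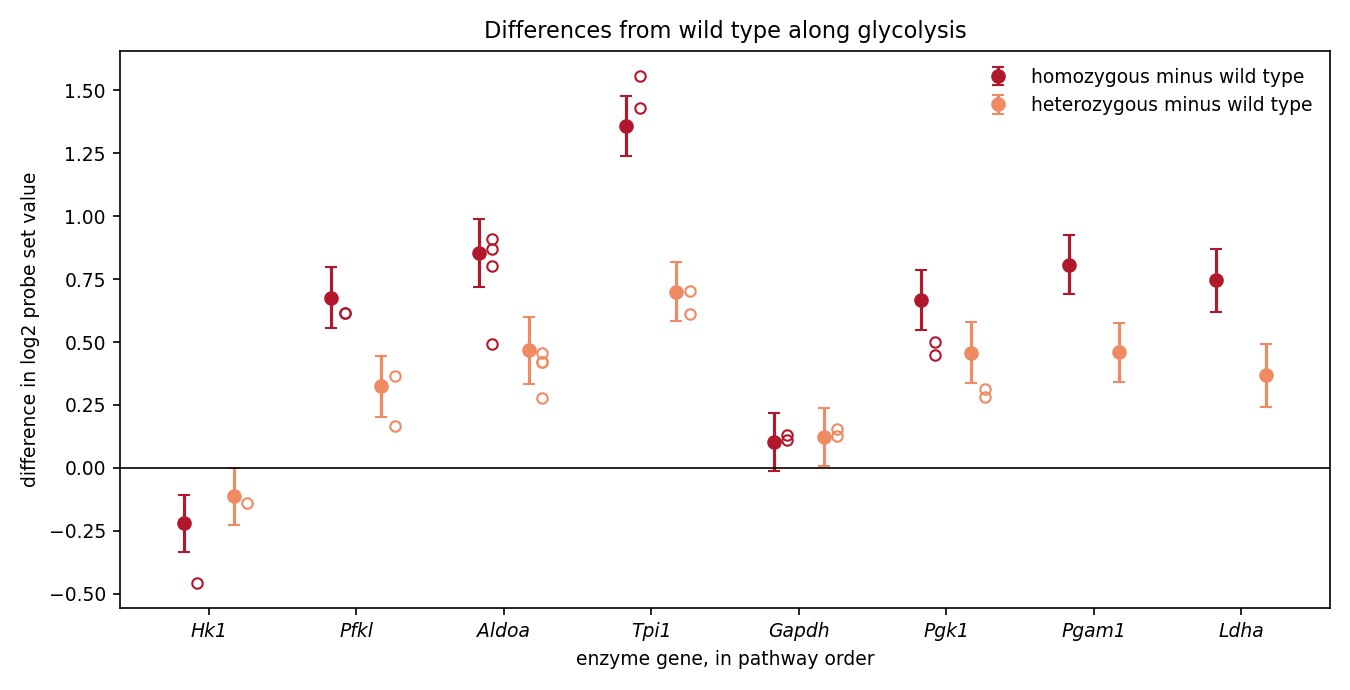
Change against wild type (log2) of each enzyme in pathway order, for homozygous and heterozygous blood. Filled points are the brightest probe set with its 95% interval and open points the other probe sets; Tpi1 stands highest at 1.36 and 0.70, and Hk1 and Gapdh lie near or below 0. With arrays set to equal poly-A signal all 8 lay below 0, as did nearly all probe sets.

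Heterozygous blood lay between the others for the 6 rising enzymes. At their brightest probe sets, all 3 homozygous arrays stood above all 3 heterozygous arrays, which stood above all 3 wild-type arrays, a pattern found in 3.89% of all genes. Hk1 stepped down in the same way, as did 6.93% of all genes. Among the 21 probe sets 14 stepped up and 2 stepped down (2.60% and 4.95% of all probe sets). The dimmer Pfkl probe sets did not step up without overlap. The difference between homozygous and heterozygous blood was 0.66 for Tpi1 (limma adjusted p = 8.01e-06), 0.39 for Aldoa, 0.38 for Ldha, 0.35 for Pfkl and Pgam1, and 0.21 for Pgk1. Heterozygous signal was then set against the midpoint of homozygous and wild type. None of the 8 enzymes departed from it under limma's adjusted threshold (5.18% of all genes did), with differences of -0.01 to 0.12. At an unadjusted p under 0.05 there was 1, Pgk1. For Tpi1 the difference was 0.02 (95% interval -0.08 to 0.12). For Pgk1 it was 0.12 (95% interval 0.02 to 0.23, adjusted p = 0.216). A departure smaller than these intervals cannot be seen with 3 arrays a group.

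The enzymes did not change equally. To see this apart from any scaling of arrays, the mean of the 8 enzymes on each array was subtracted. That mean was 9.76, 9.71 and 9.69 on homozygous, 9.44, 9.45 and 9.44 on heterozygous and 9.09, 9.10 and 9.10 on wild-type arrays. Relative to it, Tpi1 was higher in homozygous blood than in wild-type blood by 0.73 (limma adjusted p = 2.21e-07), Aldoa by 0.23 (adjusted p = 0.00181), Pgam1 by 0.18 (adjusted p = 0.00413) and Ldha by 0.12 (adjusted p = 0.0428). Only 3 enzymes were higher when homozygous array 1 or 3, heterozygous array 1 or 2 or wild-type array 1 or 3 was left out. Hk1 fell by 0.84 (adjusted p = 9.05e-08) and Gapdh fell by 0.52 (adjusted p = 2.57e-06). Pfkl and Pgk1 differed by 0.05 (adjusted p = 0.365) and 0.04 (adjusted p = 0.451). Since the mean itself rose, 0.355% of all probe sets were called higher and 98.1% lower in this fit. With so many called, an adjusted p near the threshold, such as that of Ldha, is almost the unadjusted one. In heterozygous blood Tpi1 was higher by 0.35, Hk1 lower at -0.46 and Gapdh lower at -0.22, and the other 5 did not pass (0.519% of all probe sets were higher and 89.3% lower). A value relative to a mean shows unequal change, and not that an enzyme stayed constant.

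**Figure D3:**
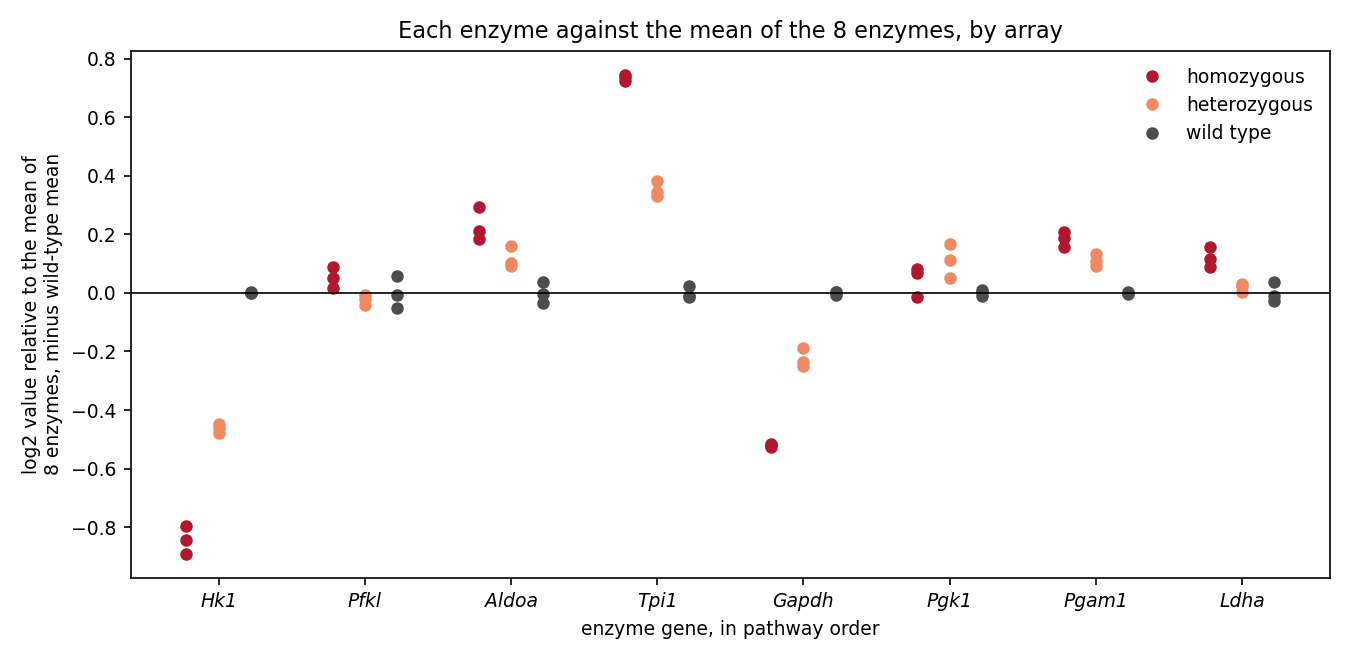
Signal of each enzyme on each array relative to the mean of the 8 enzymes on that array, shown as the difference from the wild-type average (log2). Tpi1 averaged 0.73 above and Hk1 and Gapdh 0.84 and 0.52 below wild type in homozygous blood, and Pfkl and Pgk1 0.05 and 0.04 above it.

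The genes whose pattern over the 9 arrays lay nearest to Tpi1 came from outside the pathway. Among 16274 named genes, the root mean square distance to Tpi1, each gene centred on its own mean, was 0.069 for Nme1, a nucleoside diphosphate kinase. It was 0.0897 for Alg3, a mannosyltransferase of N-glycan assembly, and 0.0901 for Atp1b2, a sodium pump subunit. It was 0.0992 for Prmt7, an arginine methyltransferase, and 0.104 for Dcbld2, a membrane receptor-like protein. These 5 were 1.16 to 1.54 higher in homozygous and 0.58 to 0.82 higher in heterozygous than in wild-type blood (log2), values by which they were chosen. Of the enzymes, Aldoa was nearest with a distance of 0.208 and rank 32, and Pgam1 ranked 51, Ldha 85, Pfkl 128 and Pgk1 138. Gapdh ranked 4641 and Hk1 13343.

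Other isozymes were described next, because a pathway step can be served by several genes. Of 12 measured isozymes and last-step enzymes, 4 were higher and 0 lower in homozygous blood (10.7% and 14.9% of all genes), with a median of 0.11. At an unadjusted p under 0.05 in limma 1 was lower, Hk2. Pfkp, the platelet-type phosphofructokinase, averaged 5.95 ± 0.11 in homozygous, 5.19 ± 0.08 in heterozygous and 5.06 ± 0.19 in wild-type blood (SD, n = 3). It rose by 0.89 in homozygous blood (limma adjusted p = 2.13e-05) and differed by 0.13 in heterozygous blood (adjusted p = 0.559). Dimmer Pfkp probe sets differed by 0.14 (adjusted p = 0.399) and 0.23 (adjusted p = 0.0384) in homozygous blood. Aldoc, the brain-type aldolase, rose by 0.65 and Pfkm, the muscle-type phosphofructokinase, by 0.38 in homozygous blood, and their heterozygous differences of 0.20 and 0.12 did not pass. Pyruvate kinase closes the pathway. Pkm, its form in most tissues, averaged 7.44 in homozygous, 7.79 in heterozygous and 7.53 in wild-type blood. It rose by 0.26 in heterozygous blood (adjusted p = 0.0317), a call lost without heterozygous array 2 or 3 or any wild-type array (adjusted p up to 0.121). Pklr, the red cell and liver form, was chosen after its values were seen. It rose by 0.22 in homozygous blood (adjusted p = 0.0238), a call lost without homozygous array 1 or wild-type array 1 or 2 (adjusted p up to 0.0958), and by 0.39 and 0.26 at its dimmer probe sets.

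Of 11 measured genes of glucose and lactate transport, the 2,3-bisphosphoglycerate shunt and the regulators of glycolysis, 2 were higher and 6 lower in homozygous blood (10.7% and 14.9% of all genes), with a median of -0.21. Slc2a1, the glucose transporter GLUT1, averaged 9.78 ± 0.13 in homozygous, 9.73 ± 0.08 in heterozygous and 10.69 ± 0.06 in wild-type blood (SD, n = 3). It fell by 0.91 in homozygous blood (limma adjusted p = 2.81e-06) and fell by 0.97 in heterozygous blood (adjusted p = 1.88e-05). Slc2a3, the glucose transporter GLUT3, averaged 8.38 in homozygous, 8.32 in heterozygous and 7.68 in wild-type blood, a rise of 0.70 and 0.64 (adjusted p = 2.03e-06 and 3.84e-05). A setting without probe sets that can bind related transcripts gave 0.23 (adjusted p = 0.0977) and 0.09. Slc16a1, the lactate transporter MCT1, fell by 0.62 in homozygous and fell by 0.52 in heterozygous blood (adjusted p = 0.000568 and 0.0057).

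Red cells divert part of the flow between Gapdh and Pgk1 to make 2,3-bisphosphoglycerate, which lowers the oxygen affinity of hemoglobin. Bpgm, the synthase of this shunt, read 11.73, 11.66 and 11.66 on homozygous, 11.94, 11.97 and 11.99 on heterozygous and 12.25, 12.23 and 12.26 on wild-type arrays, and was chosen after its values were seen. It fell by 0.56 in homozygous blood (SE 0.054, limma adjusted p = 8.8e-06) and fell by 0.28 in heterozygous blood (adjusted p = 0.00595). Its other 2 probe sets fell by 0.62 and 0.52 in homozygous blood. Minpp1, a phosphatase that can remove a phosphate from 2,3-bisphosphoglycerate, fell by 0.59 in homozygous blood (adjusted p = 3.37e-05). Its heterozygous fall of 0.25 was lost without any of 6 arrays, namely homozygous array 3, heterozygous array 2 or 3 and each wild-type array (adjusted p up to 0.161).

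In the pentose phosphate pathway, which branches off at glucose-6-phosphate and makes NADPH and ribose, 1 of 6 measured genes was higher and 3 were lower in homozygous blood (10.7% and 14.9% of all genes), with a median of -0.18. Tkt, its transketolase, rose by 0.37 in homozygous and by 0.28 in heterozygous blood (limma adjusted p = 0.000222 and 0.00537). Without probe sets that can bind related transcripts the heterozygous difference was 0.20 (adjusted p = 0.0604). Rpe and Rpia, which interconvert its pentose phosphates, fell by 0.70 and 0.38 in homozygous and by 0.41 and 0.25 in heterozygous blood. Taldo1, the transaldolase, fell by 0.25 in homozygous blood (adjusted p = 0.00474).

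Downstream, in pyruvate dehydrogenase and the citric acid cycle, 5 of 20 measured genes were higher and 4 lower in homozygous blood (10.7% and 14.9% of all genes), with a median of 0.01, and without wild-type array 1 the higher ones were 3. Mdh2, the malate dehydrogenase of mitochondria, averaged 10.86 in homozygous, 10.46 in heterozygous and 10.09 in wild-type blood, a rise of 0.77 and 0.37 (limma adjusted p = 1.48e-06 and 0.00197). Pdha1 and Dld, subunits of pyruvate dehydrogenase, fell by 0.60 and 0.59 in homozygous blood (adjusted p = 8.62e-06 and 2.3e-05). A dimmer Pdha1 probe set differed by 0.09 (adjusted p = 0.408), and the heterozygous fall of Pdha1 of 0.24 was lost without heterozygous array 3 or wild-type array 1 or 3 (adjusted p up to 0.0757). Idh3a, an isocitrate dehydrogenase subunit, fell by 0.48 at its brightest probe set (adjusted p = 0.000285), whereas a dimmer one rose by 0.25 (adjusted p = 0.0151).

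Several glycolytic genes are known targets of hypoxia-inducible factors, so other genes of that response were set beside them. Of 15 measured, 2 were higher and 5 lower in homozygous blood (10.7% and 14.9% of all genes), with a median of 0.05. In heterozygous blood 0 were higher and 5 lower (4.79% and 7.04% of all genes), and 2 to 4 were lower when single arrays were left out. At an unadjusted p under 0.05 in limma 2 were higher, Egln1 and Adm. Kdm3a, a histone demethylase, averaged 8.14 in homozygous, 8.73 in heterozygous and 9.18 in wild-type blood, a homozygous change of -1.03 (limma adjusted p = 3.84e-07). Mxi1, a MYC antagonist, changed by -0.71 in homozygous and -0.34 in heterozygous blood (adjusted p = 1.22e-05 and 0.00947). Hif1a, the oxygen-regulated subunit itself, fell by 0.53 in homozygous blood at its brightest probe set (adjusted p = 0.000554) and differed by 0.06 in heterozygous blood (adjusted p = 0.797). Dimmer Hif1a probe sets changed by -0.22 (adjusted p = 0.0354), 0.01 (adjusted p = 0.962) and 0.08 (adjusted p = 0.633) in homozygous blood. Ankrd37 rose by 0.37 in homozygous blood (adjusted p = 0.00142). Its heterozygous fall of 0.24 held without heterozygous array 1 and was lost without each of the other 8 arrays (adjusted p up to 0.165).

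**Figure D4:**
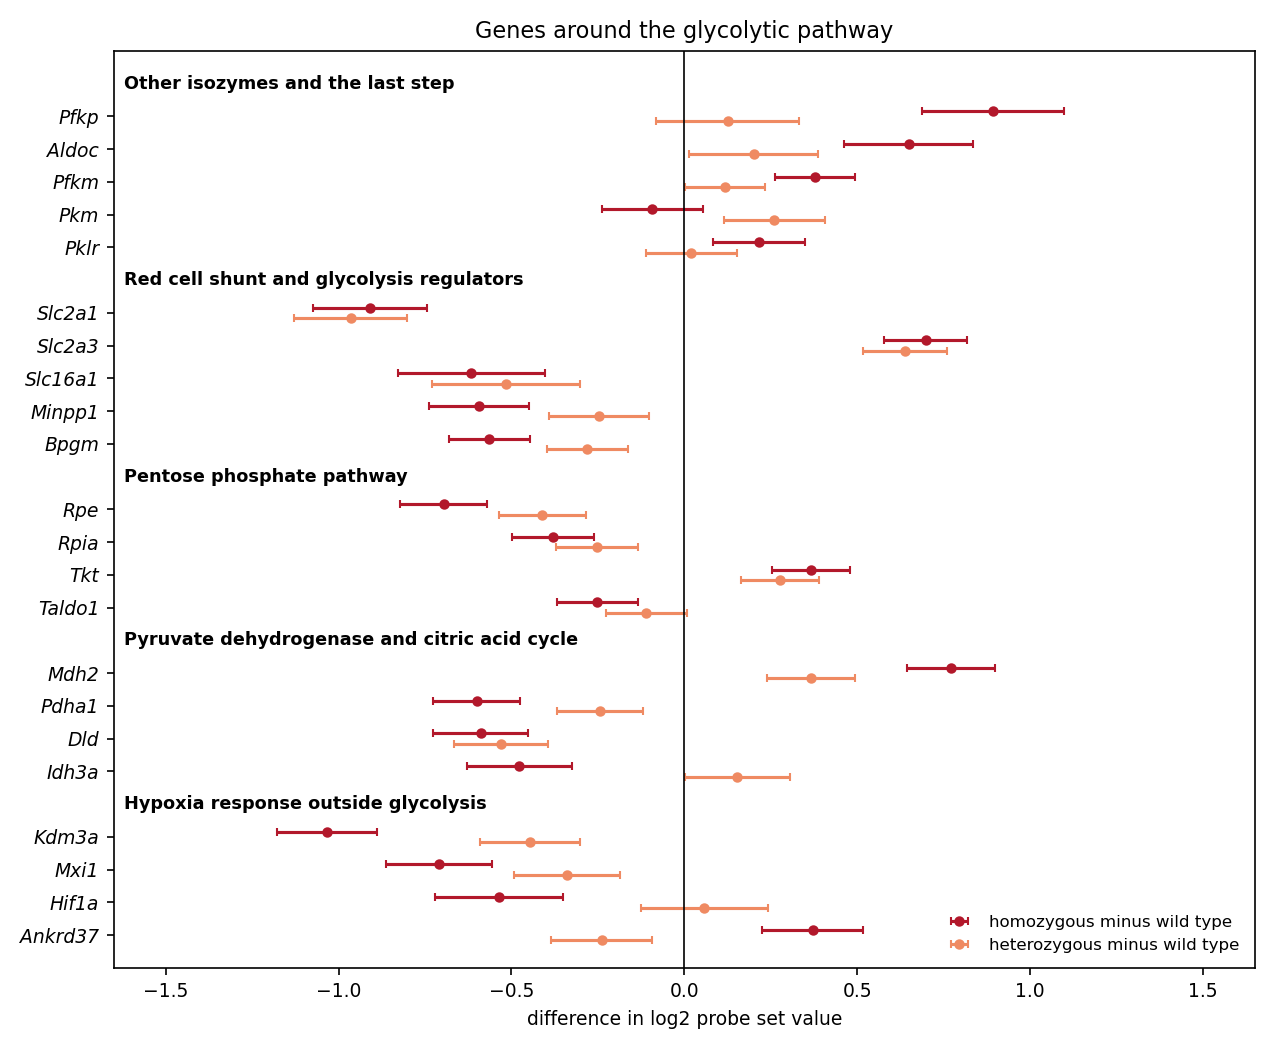
Change against wild type (log2, brightest probe set, with 95% interval) of the named genes around glycolysis, for homozygous and heterozygous blood. Slc2a1, Bpgm and Kdm3a lie below 0 (-0.91, -0.56 and -1.03 in homozygous blood) and Mdh2, Slc2a3 and Pfkp above it (0.77, 0.70 and 0.89), which turned below 0 with arrays set to equal poly-A signal.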

How the data were processed

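The authors deposited 1 table of 45101 probe sets by 9 arrays, with values from 1.49 to 14.56 taken as log2 from this range. Named in the submitters' processing notes are RMA, Partek 6.5 and Expression Console 1.0. RMA equalizes arrays, so a uniform difference in RNA content is removed. Detection calls were not used, so signal over background is unknown.

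Genotype came from the sample titles. With 51 control probe sets left out, 45050 were fitted on genotype with limma 3.58.1 (R 4.3.3) over all 9 arrays, with 2-sided tests, Benjamini-Hochberg adjustment over all probe sets and a threshold of 0.05. The Gapdh control sets were kept because the annotation gives them to 1 gene. Over all probe sets, 34958 had 1 gene, 932 several and 9211 no name, and 34754 matched RefSeq names (GRCm38.p6), with 0 changed. A gene is read by its probe set of highest mean. The mean of the members, planned over 10 genes, used the 8 measured. Folds are 2 to the power of the log2 change.

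Members, lists and tests were chosen with earlier results of these data known. From each list up to 4 called genes with the largest changes were named, and the 5 nearest to Tpi1. Alternatives changed the normalization, scaling, prior, filters, probe set choice, threshold, replicate block and arrays used. The procedure was tested on simulated data, and figures were drawn with matplotlib 3.10.9.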

Additional observations from a re-analysis of the deposited data

Results flagged for a closer look

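The bacterial poly-A spike-ins, used for the enzymes only as another scaling and not in the values as deposited, rose with the number of copies of the allele. Their 24 probe sets were 1.58 higher in homozygous and 0.88 higher in heterozygous than in wild-type arrays (log2), above the level of the controls, and both shifts exceed the largest rise of an enzyme (1.36 and 0.70, both Tpi1). The 18 hybridization control probe sets averaged 10.60 ± 0.07 in homozygous, 10.32 ± 0.04 in heterozygous and 10.32 ± 0.01 in wild-type arrays (SD, n = 3).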

How the results depend on the processing

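Over 22 alternatives, 188 of the counts of called enzymes stayed within 1.5 times the main count and 9 moved. With a prior that follows intensity, 2 enzymes departed from the midpoint. With quantile normalization 0 were lower in homozygous blood than in wild-type blood, and with the mean of all probe sets 1 was lower in homozygous than in heterozygous blood (Hk1, -0.21) and Idh3a changed by 0.0096 in homozygous blood. Scaled to poly-A spike-ins, 0 enzymes were higher and 8 lower in homozygous blood than in wild-type blood, 0 higher and 8 lower in heterozygous than in wild-type blood, and 0 higher and 7 lower in homozygous than in heterozygous blood. Over all 45050 probe sets the counts in those comparisons were 0 higher and 45048 lower, 31 and 44944, and 16 and 44938. Under that scaling the homozygous changes were -0.90 for Pfkl, -0.73 for Aldoa, -0.22 for Tpi1, -1.48 for Gapdh, -0.91 for Pgk1, -0.77 for Pgam1, -0.84 for Ldha, -0.69 for Pfkp, -0.93 for Aldoc, -1.20 for Pfkm, -0.88 for Slc2a3, -1.21 for Tkt, -0.81 for Mdh2, -1.21 for Ankrd37 and -1.36 for Pklr. The heterozygous changes were -0.56 for Pfkl, -0.41 for Aldoa, -0.18 for Tpi1, -0.76 for Gapdh, -0.42 for Pgk1, -0.42 for Pgam1, -0.51 for Ldha, -0.76 for Pfkp, -0.68 for Aldoc, -0.76 for Pfkm, -0.62 for Pkm, -0.24 for Slc2a3, -0.61 for Tkt, -0.52 for Mdh2, -0.73 for Idh3a, -0.82 for Hif1a and -0.86 for Pklr. Homozygous minus heterozygous it was -0.35 for Pfkl, -0.31 for Aldoa, -0.0399 for Tpi1, -0.49 for Pgk1, -0.35 for Pgam1 and -0.32 for Ldha. The cause was not tested.

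Scaled to reference genes, all genes moved by -0.05 in homozygous and -0.06 in heterozygous blood. The split of probe sets was then 2287 higher and 5980 lower in homozygous blood (27.7% higher, against 41.7% of 3762 higher and 5261 lower as deposited), and in heterozygous blood 22.5% of calls were higher, against 39.9%.

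The replicate numbers did not pair arrays across genotypes, since deviations of same-numbered arrays correlated at -0.0231 to 0.0695. With the replicate number as a block the counts of called enzymes stayed 6 higher and 1 lower in homozygous and 6 higher in heterozygous blood, and Pgk1 missed the threshold between homozygous and heterozygous blood (0.21, adjusted p = 0.0506). In heterozygous blood Pkm, Minpp1 and Ankrd37 missed it too (adjusted p = 0.0594, 0.0668 and 0.0699).

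The number of arrays, 3 a genotype, and the unknown pooling limit these values, and signal over background cannot be judged without detection calls.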

Other observations

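Some genes often used to scale expression moved too. Of 6 measured reference genes, 2 were higher and 1 lower in homozygous blood than in wild-type blood under limma (10.7% and 14.9% of all genes). Polr2a, an RNA polymerase subunit, differed by 0.52, Actb, cytoplasmic actin, by 0.22, and Ywhaz, a 14-3-3 protein, by -0.22 (log2). Hprt, Rplp0 and Tbp did not pass. Probe sets that the annotation gives to Gapdh together with other symbols were not counted among the enzymes. One with 5 symbols differed by 0.02 between homozygous and wild-type blood (adjusted p = 0.84), and those with 2 symbols by 0.17 (adjusted p = 0.133) and 0.45 (adjusted p = 0.00337).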
